A study of Mus musculus with 38 samples.

Results

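The data described here are the testis transcriptomes of B6-ChrXMSM and MSM males at 7 days postpartum (dpp), which carry the same X chromosome on different autosomes. B6 is the laboratory strain C57BL/6J, and MSM is an inbred strain derived from Japanese wild mice of another subspecies. B6-ChrXMSM is the substitution strain in which the MSM X chromosome was placed on B6 autosomes. The members were all arrays labelled as either strain at 7 dpp, which gave 3 males of B6-ChrXMSM and 3 males of MSM, 6 of the 38 arrays of the series. All males were untreated and prepubertal, and each array held the RNA of whole testis of 1 male. The series was made to follow gene expression in X chromosome substitution strains before meiosis. In it these strains were compared with B6, and their X-linked transcripts also with those of MSM. The B6 males of 7 dpp (3 arrays) are given beside each result for their level only, and the arrays of B6-ChrXMSM and MSM at 5 dpp (3 each) are the most similar comparison.

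The prepubertal testis consists of seminiferous cords, in which Sertoli cells surround the spermatogonia, and of an interstitium with Leydig cells, vessels and macrophages around a layer of peritubular myoid cells. In the days studied here, spermatogonia multiply and the first of them commit to differentiation under retinoic acid, before the first meiotic prophase. The X chromosome of the mouse carries many genes that are used mainly in spermatogonia, and their products act together with those of autosomal germ cell genes. A comparison of B6-ChrXMSM with B6 changes the X chromosome under constant autosomes. The comparison with MSM keeps the X chromosome and changes the genetic background, which in males holds the Y chromosome as well as the autosomes. Y-linked probe sets were not tested, and the parts of the autosomes and of the Y chromosome cannot be told apart.

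Expression was measured on Affymetrix mouse expression arrays, and all levels are log2 signals of a probe set, the group of short probes that reads 1 transcript. A probe set was tested when the mean of at least 1 of both groups lay above a signal of 10, which left 17432 probe sets of 10310 genes. It was called higher or lower in B6-ChrXMSM when the adjusted p of limma was under 0.05 and the difference was at least 1.5-fold. Arrays of a group resembled each other closely, with Pearson correlations across probe sets from 0.9959 to 0.9963 among B6-ChrXMSM males and from 0.996 to 0.9961 among MSM males, against 0.9706 to 0.9735 between the strains. No array of either group stood apart. The precision of each value is limited by the number of arrays. Germ cells were present in both strains by their defining markers. *Ddx4*, the RNA helicase of all germ cells, had signals of 6.86, 6.44 and 6.67 in B6-ChrXMSM and of 8.08, 7.97 and 7.78 in MSM testes. Somatic cells were present too, as the Sertoli cell factor *Sox9* lay between 6.42 and 6.51 in B6-ChrXMSM and between 5.86 and 6.14 in MSM testes. Since whole testes were used, fewer cells of a type and less RNA per cell cannot be told apart in these values.

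Over all chromosomes, 1610 probe sets were higher and 2533 lower in B6-ChrXMSM than in MSM testes, which is 23.8% of those tested (9.24% higher and 14.5% lower). On the autosomes, 1602 of 16945 probe sets were higher and 2479 lower. On the X chromosome, 8 of 487 probe sets were higher and 54 lower. Thus 60.7% of the autosomal calls and 87.1% of the X-linked calls were on the lower side. The median difference of all probe sets tested was -0.12 on the log2 scale. When the median of all probe sets of an array was subtracted, 56.6% of the autosomal and 83.3% of the X-linked calls were lower. When the arrays were centred on the median of the probe sets tested, chosen after seeing the data, these shares were 46% and 76.4%. The direction of the autosomal majority thus depended on the kind of centring, and that of the X-linked majority did not. Among the autosomes, the share called higher ran from 7.89% on chromosome 17 to 11.7% on chromosome 1, and the share called lower from 13.1% on chromosomes 10 and 17 to 16.6% on chromosome 16.

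**Figure D1:**
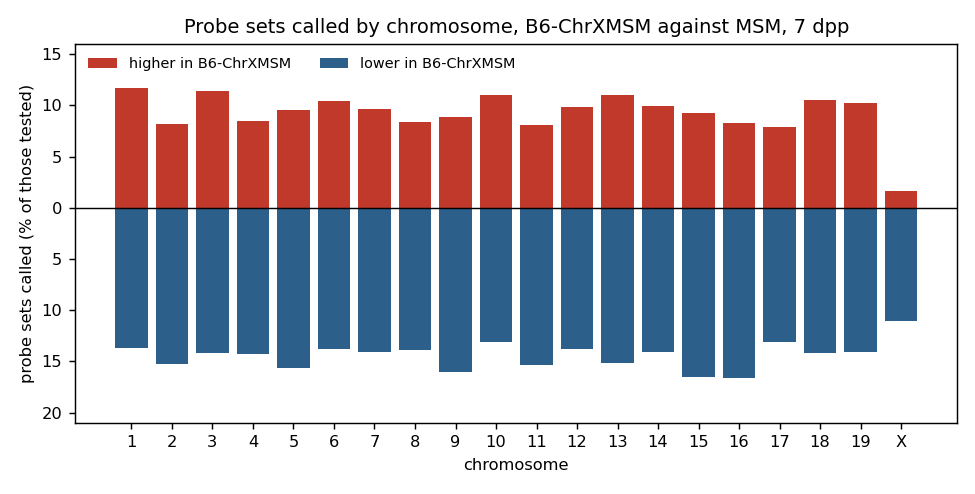
Share of the probe sets tested on each chromosome that was called higher (upward bars) or lower (downward bars) in B6-ChrXMSM than in MSM testes at 7 dpp, in percent. Each autosome had between 7.89% and 11.7% higher calls, while the X chromosome had 1.64% higher and 11.1% lower calls.

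With 1 probe set per gene, 20.7% of all genes were called (6.76% higher and 14.0% lower). Of 317 X-linked genes, 3 were higher and 39 lower. The lower X-linked calls were spread along the chromosome, with 26 of 245 probe sets in the proximal and 28 of 230 in the distal part, and 3 higher calls in either part. The remaining 12 probe sets lay at the ends of the chromosome, where an MSM origin in B6-ChrXMSM is not established, and 2 of them were higher. These were *Mid1* and *Erdr1*, at or near the pseudoautosomal region, where the X chromosome recombines with the Y chromosome.

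The X-linked genes with the largest decreases were *Tktl1*, *Tex11*, *Fam90a1b* and *1700013H16Rik*, of which the first and second belong to the list of X-linked genes of spermatogonia. *Tktl1*, which encodes a transketolase-like enzyme of sugar metabolism, had signals of 4.26, 3.37 and 4.01 in B6-ChrXMSM, of 6.74, 6.65 and 6.53 in MSM and of 5.77, 6.02 and 6.07 in B6 testes. The level of B6-ChrXMSM lay below both strains that contribute to its genome, with no overlap between the arrays. The difference from MSM was -2.76 on the log2 scale (standard error 0.20, adjusted p = 1.14e-05), and a second probe set of the gene was lower by a similar amount (-2.44).

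*Tex11*, a gene required for chromosome synapsis and crossover formation, had signals of 4.62, 3.98 and 4.16 in B6-ChrXMSM and of 6.70, 6.72 and 6.62 in MSM testes. Its difference was -2.43 (standard error 0.15, adjusted p = 4.5e-06), and the B6 males lay between 5.98 and 6.05. *Rhox13*, a homeobox gene of the reproductive Rhox cluster that is translated in differentiating germ cells, had signals of 4.10, 3.56 and 3.55 against 5.70, 5.92 and 5.95, a difference of -2.13 (adjusted p = 1.02e-05). The pattern of these genes was the same, since every B6-ChrXMSM male lay below every MSM and every B6 male.

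*Sox3*, a transcription factor of spermatogonia, differed by -1.87 (adjusted p = 3.14e-05) with 4.10 ± 0.38 (SD, n = 3) in B6-ChrXMSM, 5.96 ± 0.03 (SD, n = 3) in MSM and 6.12 ± 0.07 (SD, n = 3) in B6 testes. *Nxf2*, an mRNA export factor of male germ cells, had signals of 5.46, 5.11 and 5.62 in B6-ChrXMSM and of 6.98, 7.04 and 6.90 in MSM testes, a difference of -1.58 (adjusted p = 1.59e-05). *Taf7l*, the germ cell paralog of a subunit of the transcription factor TFIID, differed by -1.44 (adjusted p = 2.69e-05), from 5.07, 4.69 and 5.07 to 6.40, 6.52 and 6.21. Both genes were at nearly the same level in MSM and B6 testes, where *Taf7l* had means of 6.38 and 6.38. *Scml2*, a Polycomb protein of the male germline, was lower by 1.73 on the log2 scale as well, with 6.03 ± 0.21 against 7.77 ± 0.09 (SD, n = 3 each).

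Among the remaining leading X-linked genes, the group level of B6-ChrXMSM fell below the signal of 10 in *Fam90a1b* (-2.42), *1700013H16Rik* (-2.36) and *Rnf128* (-2.06), so the size of these differences rests on a weak signal. *Rnf128*, a ubiquitin ligase, had signals of 2.45, 2.28 and 2.94 against 4.87, 4.48 and 4.49 in MSM testes. *Fmr1nb*, a testis antigen next to *Fmr1*, differed by -1.96, and *Tex13b*, a testis-expressed gene, by -1.93. In 20 of the 54 lower X-linked probe sets the B6-ChrXMSM mean was below the signal of 10.

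**Figure D2:**
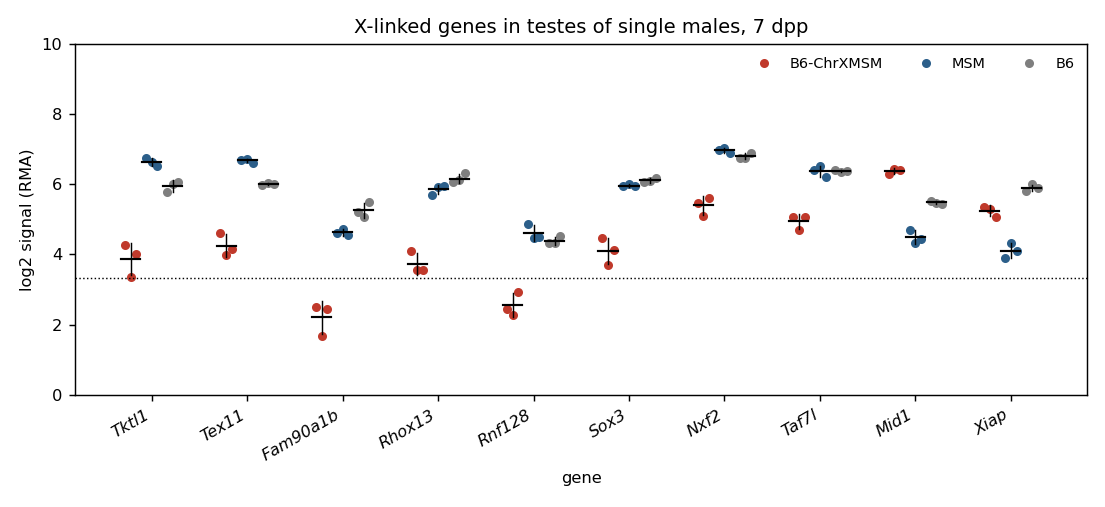
Log2 signal of 10 X-linked genes in testes of 3 B6-ChrXMSM, 3 MSM and 3 B6 males at 7 dpp. Points are single males, horizontal bars the group means, vertical bars the SD, and the dotted line marks a signal of 10; in the first 8 genes every B6-ChrXMSM male lies below the MSM and B6 males, while *Mid1* and *Xiap* are higher in B6-ChrXMSM than in MSM.

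*Phex*, an endopeptidase of phosphate metabolism, stood between the parental strains and was chosen after its values were seen. Its signals were 4.48, 4.67 and 4.36 in B6-ChrXMSM, 5.83, 5.89 and 6.01 in MSM and 1.81, 1.84 and 1.44 in B6 testes. The difference from MSM was -1.41 (adjusted p = 6.57e-06), and the B6 level was below the signal of 10.

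The 8 higher X-linked probe sets were those of *Mid1*, *Nhsl2*, *Xiap*, *Smc1a*, *Erdr1*, *Atrx*, *Mtcp1* and *Slc38a5*. *Mid1*, a microtubule-associated ubiquitin ligase, had signals of 6.29, 6.43 and 6.42 in B6-ChrXMSM and of 4.71, 4.33 and 4.43 in MSM testes, with B6 between them at 5.53, 5.48 and 5.44. Its difference of 1.89 (standard error 0.10, adjusted p = 2.88e-06) was the largest increase on the X chromosome. *Xiap*, an inhibitor of caspases, differed by 1.14 (adjusted p = 7.34e-05), with 5.25 ± 0.15 in B6-ChrXMSM, 4.12 ± 0.21 in MSM and 5.90 ± 0.09 in B6 testes (SD, n = 3 each). A stronger probe set of *Xiap* had 7.17 and 7.12 and was not called (0.05). *Smc1a*, a subunit of cohesin, was higher by 0.90 and *Nhsl2* by 1.74, each with another probe set of the opposite sign, and the amino acid transporter *Slc38a5* of Sertoli cells by 0.59. *Mtcp1* was higher by 0.60 in the weakest of its 3 probe sets only. *Erdr1* was higher by 0.87, and its B6 arrays spread from 7.92 to 8.90. *Atrx*, a chromatin remodeller, was higher by 0.64 in 1 probe set and lower by 0.63 in another of weaker signal, so its direction is uncertain. It was the only 1 of 22 X-linked genes with several probe sets and a call that was called both ways.

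Some X-linked genes had been followed by RT-PCR in the study, in MSM and other strains relative to B6 but not in B6-ChrXMSM. Most of them passed the filter here. *Nxf2*, *Taf7l*, *Rnf128* and *Trap1a* were lower in B6-ChrXMSM than in MSM testes, *Trap1a*, a tumour antigen gene, by 0.88 on the log2 scale (adjusted p = 0.000248). *Pwwp3b*, also named *Mum1l1*, had 7.21 ± 0.06 against 7.48 ± 0.04 (SD, n = 3 each), a difference of -0.27 that was under 1.5-fold and was not called. *Tsc22d3* was only read by probe sets listed as polymorphic between the strains, of which 2 were lower (-1.34 and -0.82), or by 1 below the signal of 10. The signals of *Srpx2* and *Nxf3* were below 10 in both groups.

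Reference promoters are printed for germ cell genes that were lower, because the E-box CACGTG was searched in them as a motif shared by germline genes that are silenced in somatic cells. The sequences are those of RefSeq on GRCm38.p6, which is a B6 genome, so that they show the sequence of the B6 autosomes and not that of the MSM X chromosome, which was not analysed here. Each shows the 250 bases before the first listed start of the gene, 5′ to 3′ on the strand of the gene, in lower case with CACGTG in capitals. The X-linked genes *Taf7l* (chrX:134476491-134476740, minus strand), *Nxf2* (chrX:134964755-134965004, minus strand) and *Tktl1* (chrX:74177009-74177258, plus strand) are followed by the autosomal genes *Ddx4* (chr13:112652311-112652560, minus strand), *Tex12* (chr9:50561269-50561518, minus strand) and *Tdrd9* (chr12:111971309-111971558, plus strand).
Taf7l: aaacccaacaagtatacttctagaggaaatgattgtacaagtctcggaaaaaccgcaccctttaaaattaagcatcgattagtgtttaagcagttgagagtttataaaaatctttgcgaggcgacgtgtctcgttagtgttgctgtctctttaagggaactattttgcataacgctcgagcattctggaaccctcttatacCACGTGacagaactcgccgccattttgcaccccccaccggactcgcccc
Nxf2: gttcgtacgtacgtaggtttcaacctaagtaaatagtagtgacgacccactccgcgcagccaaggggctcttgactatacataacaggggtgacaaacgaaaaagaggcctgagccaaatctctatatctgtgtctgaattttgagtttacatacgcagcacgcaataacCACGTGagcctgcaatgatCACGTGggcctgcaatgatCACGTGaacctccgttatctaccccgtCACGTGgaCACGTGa
Tktl1: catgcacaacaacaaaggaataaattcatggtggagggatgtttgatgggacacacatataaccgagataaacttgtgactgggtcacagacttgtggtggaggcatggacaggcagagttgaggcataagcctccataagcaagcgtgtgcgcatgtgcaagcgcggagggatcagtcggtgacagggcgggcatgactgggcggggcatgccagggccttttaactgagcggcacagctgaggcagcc
Ddx4: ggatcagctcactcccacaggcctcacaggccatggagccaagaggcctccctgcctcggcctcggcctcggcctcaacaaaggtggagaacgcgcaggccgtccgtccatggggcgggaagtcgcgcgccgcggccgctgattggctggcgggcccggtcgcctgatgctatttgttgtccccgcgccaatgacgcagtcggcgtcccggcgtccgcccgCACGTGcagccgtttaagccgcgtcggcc
Tex12: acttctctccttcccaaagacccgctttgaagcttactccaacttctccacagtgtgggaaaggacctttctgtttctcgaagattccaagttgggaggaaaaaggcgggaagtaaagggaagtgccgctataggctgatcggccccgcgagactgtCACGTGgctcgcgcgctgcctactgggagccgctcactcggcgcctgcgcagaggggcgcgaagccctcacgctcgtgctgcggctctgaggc
Tdrd9: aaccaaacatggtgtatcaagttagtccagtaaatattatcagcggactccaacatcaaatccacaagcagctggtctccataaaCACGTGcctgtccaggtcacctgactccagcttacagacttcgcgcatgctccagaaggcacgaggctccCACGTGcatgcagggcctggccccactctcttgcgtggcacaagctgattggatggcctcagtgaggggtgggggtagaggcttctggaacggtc

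The motif is its own reverse complement, so both strands are read at once. It occurred 5 times before *Nxf2*, for which 2 starts are listed and the first was used, 2 times before *Tdrd9* and once before *Taf7l*, *Ddx4* and *Tex12*. It was not in the window of *Tktl1*. Of all 27025 genes with a listed promoter, 6.05% held it in this window, and of the 8394 such genes among those tested here, 9.08%. Of 50 X-linked genes with a lower probe set, 44 had a listed promoter and 6 of these held it (13.6%), against 23 of 278 X-linked genes tested (8.27%). In the meiotic prophase list it was in 7 of 16 promoters and in the germ cell and piRNA list in 6 of 17. It was in 1 of 9 promoters of the differentiating spermatogonia list and in 2 of 17 of the Sertoli cell list, and it was not in the windows of *Rhox13* and *Meioc*. In the undifferentiated spermatogonia list it was in 0 of 8, which only says that these letters are not in these windows. A match is a description of the sequence and was not tested as a site.

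Germ cell genes of the autosomes were lower in B6-ChrXMSM as well. Of the list of germ cell and piRNA pathway genes, 19 of 20 measured genes were lower and 0 higher, with a median of -1.47, beside 14.0% lower calls and a median of -0.13 over all genes. *Piwil4*, a nuclear PIWI protein of prospermatogonia, had signals of 1.60, 1.58 and 1.54 against 4.77, 4.78 and 4.37 in MSM testes, a difference of -3.07 (adjusted p = 4.11e-07), and the B6 males lay between them at 2.62, 2.85 and 2.14. *Tdrd9*, an RNA helicase of the piRNA pathway, had signals of 3.44, 3.35 and 3.5 in B6-ChrXMSM, 5.72, 5.88 and 5.85 in MSM and 5.46, 5.47 and 5.47 in B6 testes, a difference of -2.39 (standard error 0.07, adjusted p = 1.79e-07). *Tex101*, a surface protein of germ cells, differed by -2.36, and *Mov10l1*, a helicase that feeds piRNA precursors into processing, by -2.08.

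The general germ cell markers were lower by less, *Ddx4* by 1.29 (adjusted p = 3.89e-05) and *Dazl*, an RNA-binding protein of the germline, by 1.27 on the log2 scale (adjusted p = 2.89e-05). They moved with the X-linked genes above, many of which are germ cell genes, and the part of the germ cell content in those differences was not tested. *Tdrd7* was the 1 gene of the list that was not called (-0.57). The mean signal over the list lay from 4.39 to 4.8 in the B6-ChrXMSM, from 6.18 to 6.31 in the MSM and from 5.77 to 5.86 in the B6 males, so that the strains did not overlap. In 71.4% of all genes tested (70.8% of probe sets) the arrays likewise did not overlap between the strains.

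Of 19 measured genes of meiotic prophase, 15 were lower and 2 higher, with a median of -1.41. The shares over all genes, for this list and the spermatogonia lists below, were 6.76% higher and 14.0% lower. *Meioc*, whose protein works with the RNA helicase YTHDC2 to let germ cells pass into meiotic prophase, was close to the lower end of the scale in B6-ChrXMSM, with signals of 0.46, 0.34 and 0.96. In MSM testes it had 4.43, 4.69 and 4.13 and in B6 testes 3.52, 4.03 and 3.81. Its difference from MSM was -3.83 (standard error 0.18, adjusted p = 1.47e-06), the largest among all list members, and its size rests on a B6-ChrXMSM level below the signal of 10. *Tex12*, a protein of the central element of the synaptonemal complex, had signals of 4.64, 4.07 and 4.62 against 7.01, 6.97 and 6.89 (-2.51, adjusted p = 3.8e-06), and *Smc1b*, the meiotic cohesin subunit, differed by -1.89.

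The 2 genes of this list that were higher were *Mlh3* (0.79), a mismatch repair protein of crossovers, and *4930447C04Rik* (0.62), also named *Six6os1*, of the synaptonemal complex. Not called were *Ythdc2*, the partner of *Meioc* (-0.44), and the recombinase gene *Dmc1* (-0.28).

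Of 13 measured genes of differentiating spermatogonia, 9 were lower and 1 higher, with a median of -1.43. *Stra8*, which is induced by retinoic acid, had signals of 5.23, 4.76 and 5.27 in B6-ChrXMSM, 6.76, 7.04 and 6.77 in MSM and 7.18, 7.49 and 7.31 in B6 testes (-1.77, adjusted p = 2.13e-05). *Dmrtb1*, a transcription factor at the change from mitosis to meiosis, differed by -2.58 from a B6-ChrXMSM level below the signal of 10, and *Tex15*, which acts in germline silencing and recombination, by -1.89 from 5.99 ± 0.14 to 7.88 ± 0.14 (SD, n = 3 each). *Kit*, the receptor of differentiating spermatogonia, was lower by 1.43 on the log2 scale. The 1 higher gene, the cyclin *Ccnd2* (0.81), is also used in somatic cells.

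Of 15 measured genes of undifferentiated spermatogonia, 11 were lower and 0 higher, with a median of -1.07. *Neurog3*, a transcription factor of progenitor spermatogonia, had signals of 2.36, 1.98 and 2.11 against 4.86, 4.90 and 4.91 in MSM testes, while B6 lay between them at 3.09, 3.27 and 3.60. *Lin28a*, an RNA-binding protein of stem and progenitor cells, differed by -2.71 and *Sall4*, a zinc finger factor of spermatogonia, by -1.46 (adjusted p = 1.93e-05). *Gfra1*, the receptor for GDNF on stem cells, was lower by 0.88 and stood at 4.07 in B6-ChrXMSM and 4.25 in B6 testes. The 4 genes not called were *Lhx1* (-0.38), *Bcl6b* (-0.36), *Rarg* (-0.31) and *Etv5* (0.22).

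The comparisons with B6 share arrays with the one above, so their values are given side by side only. Against B6, the B6-ChrXMSM testes had a median of -1.48 in meiotic prophase genes and of -0.22 in genes of undifferentiated spermatogonia, with 15 of 18 and 5 of 13 genes lower, beside 6.12% called of all genes in that comparison (1.63% higher and 4.49% lower). MSM against B6 had medians of 0.16 and 0.40, with 4 of 19 genes lower and 3 higher in the first list and 0 lower and 7 of 15 higher in the second, beside 14.7% called of all genes (9.38% higher and 5.33% lower). *Id4*, a marker of stem cells, had means of 6.18 in B6-ChrXMSM, 7.25 in MSM and 5.98 in B6 testes, and *Ret*, the signalling receptor for GDNF, had 3.52, 4.55 and 3.10. Both genes were thus lower than in MSM at a level close to that of B6.

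The list of X-linked genes of spermatogonia had 9 measured members, of which 8 were lower and 0 higher, with a median of -1.73. Several members, among them *Nxf2*, *Taf7l*, *Trap1a* and *Tex11*, had been reported by the study as lower than in B6 in substitution strains. The count and median are therefore partly set by the choice of the list. *Pwwp3b* was the member not called. Of the Rhox cluster, only *Rhox13* and *Rhox5* were measured, and *Rhox5*, a Sertoli cell gene, had 3.58 against 3.15, a difference of 0.43 that was not called.

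**Figure D3:**
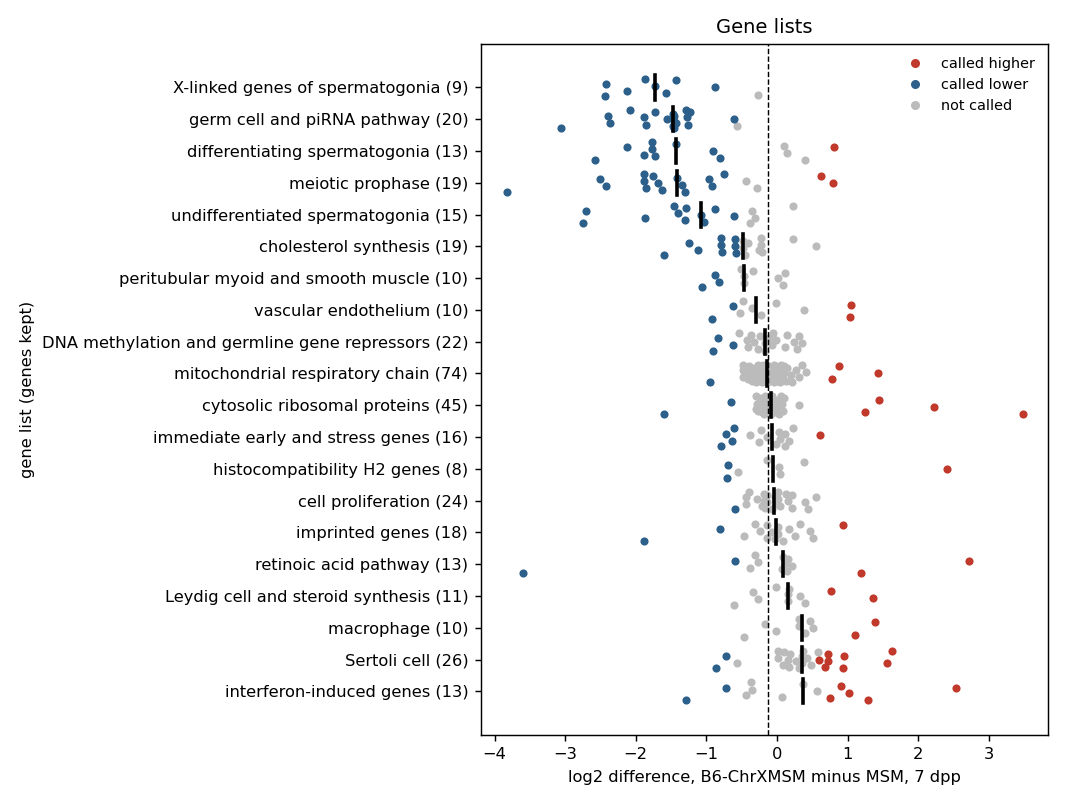
Log2 difference of B6-ChrXMSM minus MSM at 7 dpp for the members of each gene list with at least 8 measured genes. Points are genes (red called higher, blue called lower, grey not called), thick bars the list medians, and the dashed line the median of all genes, -0.13; the lists of germ cells and spermatogonia have medians from -1.07 to -1.73, and the Sertoli cell list has 0.35.

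Genes of Sertoli cells had a median of 0.35, and 8 of 26 were higher and 2 lower, beside 6.76% higher calls over all genes. *Tesc*, a calcium-binding protein, had signals of 7.70, 7.91 and 7.76 in B6-ChrXMSM, 6.04, 6.39 and 6.28 in MSM and 6.98, 7.12 and 7.18 in B6 testes (1.55, adjusted p = 7.16e-06). *Gdnf*, the growth factor for spermatogonial stem cells, was higher by 0.94 (adjusted p = 4.15e-05), and *Kitl*, the ligand of KIT, and *Dhh*, the hedgehog ligand of the cords, by 0.73 each. *Clu*, *Gata4*, *Hsd17b1* and *Mro* were the other higher genes (0.59 to 1.63). *Amh*, the hormone of immature Sertoli cells, went the other way, with signals of 4.32, 4.51 and 4.51 against 5.01, 5.15 and 5.34 (-0.72), and B6 males were lower still at 4.28, 3.82 and 3.75. *Gata1* was lower by 0.87. *Sox9* differed by 0.49, under 1.5-fold.

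In Leydig cells, the steroid enzymes *Hsd17b3* (1.37), which makes testosterone and in the fetal testis is active in Sertoli cells, and *Cyp11a1* (0.76), which starts steroid synthesis, were higher, and 0 of 11 genes were lower, with a median of 0.16. *Cyp17a1* did not differ beyond its spread, with signals of 6.78, 7.83 and 6.25 against 7.65, 6.94 and 6.31 (adjusted p = 0.978), and *Star* varied from 4.02 to 6.40 and from 5.27 to 7.11, with 1 of its 3 probe sets called lower (-1.08). Of 10 genes of peritubular myoid cells, *Cnn1* (-1.06), *Tagln* (-0.87) and *Myl9* (-0.82), all of the contractile apparatus, were lower and 0 were higher, with a median of -0.47. The defining genes *Acta2* (-0.51) and *Myh11* (-0.33) were not called by these probe sets, while a weak second probe set of *Acta2* was lower (-0.90). Of 10 endothelial genes, *Sox18* (1.05) and *Ramp2* (1.04) were higher and *Emcn* (-0.92) and *Egfl7* (-0.62 in 1 of 3 probe sets) lower, with a median of -0.29. Of 10 macrophage genes, *Lyz2* (1.38) and *Laptm5* (1.11) were higher and 0 lower, with a median of 0.35. The counts of these somatic lists stand beside 6.76% higher and 14.0% lower calls over all genes.

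Of tissues that could be carried along with the testis, 0 genes of the erythroid and skeletal muscle lists passed the filter. In the epididymis list *Lcn2* was lower (-1.22, adjusted p = 0.041) and *Spink8* was not called (-0.38), and in the adipose list *Dgat2* was lower (-1.22) and *Fabp4* varied too much to be called (-1.30, adjusted p = 0.295).

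The retinoic acid pathway, which starts differentiation, had 2 of 13 genes higher and 2 lower, with a median of 0.09. Over all genes, 6.76% were called higher and 14.0% lower. *Crabp1*, the cellular retinoic acid binding protein, had signals of 3.16, 2.81 and 3.45 in B6-ChrXMSM, 6.66, 6.89 and 6.63 in MSM and 6.12, 6.52 and 6.30 in B6 testes, a difference of -3.59 (adjusted p = 9.14e-07). The B6-ChrXMSM mean of *Crabp1* was below the signal of 10. *Rbp4*, a carrier of retinol, was lower by 0.59 on the log2 scale. The enzymes *Rdh11* (2.73, and 0.48 in a second probe set that was not called) and *Aldh1a2* (1.2) of retinoic acid synthesis were higher, from MSM levels below the signal of 10, and were at a similar level in B6 testes (4.91 and 4.83) as in B6-ChrXMSM testes (5.10 and 4.44).

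Cholesterol synthesis had 9 of 19 genes lower and 0 higher, with a median of -0.49, among them *Mvd* (-1.24), *Dhcr7* (-1.12) and *Sc5d* (-0.79), enzymes of the pathway. *Stard4*, a sterol carrier, was lower by 1.60 but had another probe set of the opposite sign. Interferon-induced genes had 5 of 13 higher and 2 lower, with a median of 0.37, and *Gbp7* differed by 2.53 and *Trim30a* by -1.28. *Xaf1*, counted among the higher genes with 1.28, had another probe set called lower (-3.34, adjusted p = 1.12e-07), so its direction is uncertain. Of 8 histocompatibility genes, *H2-Q10* (2.41) was higher and *H2-D1* (-0.70) and *H2-Aa* (-0.70) were lower, with a median of -0.06. H2 genes are a family of similar and polymorphic sequences, so their values are uncertain. The counts of the cholesterol, interferon and histocompatibility lists stand beside 6.76% higher and 14.0% lower calls over all genes.

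The medians of the remaining lists lay between -0.17 and -0.01, and their counts are to be read against 6.76% higher and 14.0% lower calls over all genes. Of 24 proliferation genes *Bub1* was lower (-0.60) and 0 were higher. A weaker probe set of *Bub1* was called higher (2.52, limma adjusted p = 1.4e-06), so its direction is uncertain. Of 18 imprinted genes, *Meg3* (0.94) was higher and *Phlda2* (-1.88) and *Nnat* (-0.80) were lower. Of 22 genes of DNA methylation and germline gene repression, *Dnmt3b* (-0.90), *Ehmt2* (-0.84) and *Max* (-0.62) were lower and 0 higher. Of 16 immediate early and stress genes, *Nr4a1* (0.60) was higher and *Dusp1* (-0.79), *Hsph1* (-0.72), *Egr2* (-0.64) and *Atf3* (-0.61) were lower.

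Of 45 ribosomal protein genes, *Rpl14* (3.48), *Rpl12* (2.23), *Rps25* (1.44) and *Rps6* (1.24) were higher and the germ cell paralog *Rpl39l* (-1.60) and *Rpl7l1* (-0.66) lower, while 39 were not called. Ribosomal protein genes have many near-identical pseudogenes, so their values are uncertain too. Of 74 genes of the respiratory chain, the testis isoform *Cox6b2* (1.43), *Cox7a1* (0.88) and *Cox7c* (0.78) were higher and *Cox7b2* (-0.94) lower. The median was -0.06 for histocompatibility genes, -0.04 for proliferation, -0.01 for imprinted genes, -0.07 for immediate early genes and -0.09 for ribosomal proteins on the signal as deposited, and the sign of these 5 medians turned when the arrays were centred on the median of the probe sets tested. The medians were -0.17 for gene repression and -0.14 for the respiratory chain, and both stayed below 0 when centred.

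*Ppp2r1a* was higher by 8.04, 7.88 and 6.95 in 3 of 5 probe sets, from MSM levels below the signal of 10. It was set aside because other probe sets had the opposite sign (-0.55 and -0.22, not called). Among autosomal genes without such a conflict, the largest differences were of another kind, since B6-ChrXMSM and B6 were alike in most of them and MSM stood apart. In 1 of 4 probe sets, gelsolin (*Gsn*), an actin-severing protein, had signals of 7.87, 8.02 and 7.97 in B6-ChrXMSM, 0.44, 0.52 and 0.33 in MSM and 7.72, 7.85 and 7.30 in B6 testes (7.52, adjusted p = 4.04e-10). The other 3 probe sets of *Gsn* had means from 7.15 to 7.30 in MSM and from 7.43 to 7.67 in B6-ChrXMSM testes and were not called (0.16 to 0.37), so a low level of *Gsn* in MSM rests on 1 probe set. *Clca3a1* (4.86), *Manea* (4.44), *Rgcc* (3.82), *Camkk2* (3.81) and *Tmem267* (3.8) had this pattern too. *Manea*, an enzyme of glycan trimming, lay between 6.01 and 6.12 in B6-ChrXMSM, between 1.49 and 1.89 in MSM and between 5.64 and 5.77 in B6 testes.

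*Cbln1*, a secreted protein known from synapses, was different, with signals of 6.93, 7.11 and 6.88 in B6-ChrXMSM against 1.84, 1.91 and 2.13 in MSM and 3.92, 4.09 and 3.94 in B6 testes, so it was above both parental strains (5.01 against MSM, adjusted p = 2.09e-08). *Dsp*, a protein of desmosomes, was also above both, at 6.93 ± 0.09 against 3.15 ± 0.49 in MSM and 5.22 ± 0.17 in B6 testes (SD, n = 3 each).

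On the lower side, *Spdya*, an activator of cyclin-dependent kinases that acts at meiotic telomeres, had signals of 1.60, 2.05 and 1.91 in B6-ChrXMSM, 6.55, 6.77 and 6.57 in MSM and 1.87, 2.02 and 2.11 in B6 testes (-4.78, adjusted p = 7.71e-08). *Mt3*, a metallothionein, had 2.97, 2.75 and 2.98 against 7.64, 7.55 and 7.59, and B6 was low as well at 3.19, 3.06 and 3.02. *Sectm1a* (-4.23), *Pnpt1* (-3.49), *Plekhj1* (-3.27) and *Depdc5* (-3.14) were likewise at the B6 level in B6-ChrXMSM testes in these probe sets. The other probe sets of *Pnpt1* were not called (-0.04 and -0.56), and another of *Depdc5* was lower by only 0.89 on the log2 scale. Of the 8 leading lower genes, *Meioc* and *Crabp1* were those in which B6 was near MSM and B6-ChrXMSM was low.

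**Figure D4:**
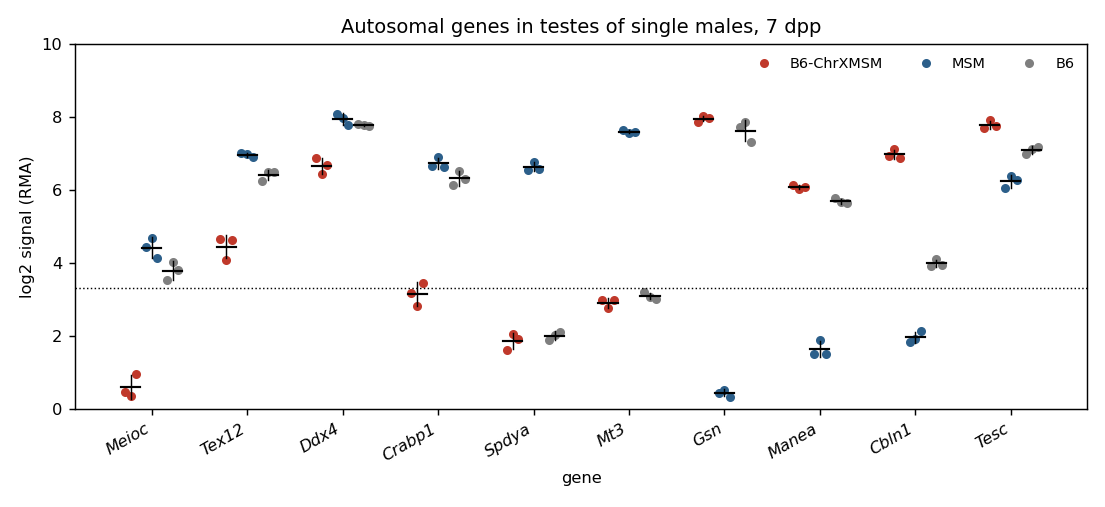
Log2 signal of 10 autosomal genes in testes of 3 B6-ChrXMSM, 3 MSM and 3 B6 males at 7 dpp. Points are single males, horizontal bars the group means, vertical bars the SD and the dotted line a signal of 10; *Meioc*, *Tex12*, *Ddx4* and *Crabp1* are low in B6-ChrXMSM only, *Spdya* and *Mt3* are high in MSM only, the probe sets shown for *Gsn* (1 of 4) and *Manea* are low in MSM only, and *Cbln1* and *Tesc* are highest in B6-ChrXMSM.

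Large differences were more often higher than lower on the autosomes, with 211 higher and 107 lower probe sets at 4-fold or more, although lower calls were the more frequent in all. At 16-fold or more there were 21 higher and 6 lower autosomal probe sets, and in 20 of the 21 and in all 6 the weaker group was below the signal of 10. On the X chromosome, 0 probe sets were higher and 7 lower at 4-fold or more, and none passed 16-fold in either direction. Array probes follow the reference sequence, so that on the autosomes a sequence difference under a probe and a difference in RNA cannot be told apart, whereas both groups carry the same X chromosome. Lists of polymorphic probe sets were used for chromosomes 1 and X, and their members had been left out. On chromosome 1, 44 of 324 listed probe sets were higher and 36 lower (13.6% and 11.1%), and 91 of 776 unlisted probe sets were higher and 106 lower (11.7% and 13.7%). Of 1878 autosomal genes with several probe sets and a call, 126 (6.71%) had probe sets called in both directions, and in 306 (16.3%) all probe sets were called in the same direction. *Nnt*, of which B6 carries a known deletion, had 6.22 ± 0.07 in B6-ChrXMSM, 6.88 ± 0.17 in MSM and 5.92 ± 0.18 in B6 testes (SD, n = 3 each), and was lower in B6-ChrXMSM by 0.66 on the log2 scale.

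At 5 dpp the same strains differed in 2137 higher and 3330 lower probe sets of 17522, which is 31.2% of those tested, with 12.2% higher. On the X chromosome, 28 of 488 probe sets were higher and 71 lower. The difference between strains itself differed between the ages in 1916 of 17969 probe sets, or 10.7%, by the strain by age term of limma. Of these, 1005 were more positive and 911 more negative at 7 dpp (5.59% and 5.07%). On the X chromosome 22 of 503 were more positive and 33 more negative.

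With 1 probe set per gene, 8.87% of 10601 genes had a strain by age call (6.01% more positive and 2.86% more negative). Of the lists of germ cell genes, 0 of 20 genes of germ cells and the piRNA pathway had such a call, 1 more positive and 1 more negative of 19 of meiotic prophase, 4 more positive of 16 of undifferentiated spermatogonia, and 1 more positive and 2 more negative of 13 of differentiating spermatogonia. The following genes were picked for their terms or as markers. *Meioc* stayed between 0.40 and 0.48 in B6-ChrXMSM testes at 5 dpp and between 0.74 and 1.78 in MSM testes, below the signal of 10 in both, and the strains came apart by 7 dpp (strain by age -2.99, standard error 0.32, adjusted p = 0.000115). *Rhox13* differed by -0.82 at 5 dpp and by -2.13 at 7 dpp (-1.30, adjusted p = 0.00237). For *Sox3*, *Nxf2* and *Tex19.1*, the difference was smaller at 7 than at 5 dpp. *Tex19.1*, a gene for the silencing of retrotransposons in germ cells, differed by -3.43 at 5 dpp, from 3.31, 4.25 and 3.61 to 7.24, 6.98 and 7.23, and by -1.60 at 7 dpp (1.83, adjusted p = 0.00114). *Sox3* differed by -3.35 and -1.87 (1.49, adjusted p = 0.00357), and *Nxf2* by -2.96 and -1.58 (1.38, adjusted p = 0.0169). *Ddx4* and *Dazl* differed by -1.96 and -1.80 at 5 dpp, and their strain by age terms did not pass the test (adjusted p = 0.193 and 0.287).

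Genes used in many cell types were also among those with the largest strain by age terms. *Cap1*, an actin-binding protein, had signals of 6.13, 6.04 and 5.85 in B6-ChrXMSM and of 2.51, 2.47 and 2.82 in MSM testes at 5 dpp, while at 7 dpp it had 5.89, 6.03 and 6.11 against 5.06, 5.11 and 5.12 (-2.50, adjusted p = 5.71e-06), and its second probe set had a term of -2.42. The motor protein *Kif5b* (-2.12) and the splicing factor *Rbm39* (-2.11) were higher in B6-ChrXMSM at 5 dpp by 1.78 and 1.77 and differed by -0.34 at 7 dpp in both. These terms belong to the weakest of 6 and of 12 probe sets. The other 5 probe sets of *Kif5b* had terms from -0.42 to -0.02 and no call, and 2 of the other 11 of *Rbm39* were called (-1.78 and -0.78). *Golm2* did not differ at 5 dpp (0.07) and differed by 2.40 at 7 dpp (2.33, adjusted p = 0.000112), while a stronger probe set of the gene had a term of -0.05 that was not called. *Pcbp4* (1.73) was below the signal of 10 in both groups at 7 dpp. *Ppp2r1a* (1.73), a subunit of protein phosphatase 2A, had an MSM level below the signal of 10 at 7 dpp. Its other probe sets had terms of the same sign, from 0.56 to 1.15, while some had a 7 dpp difference of the opposite sign (-0.55 and -0.22, not called).

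**Figure D5:**
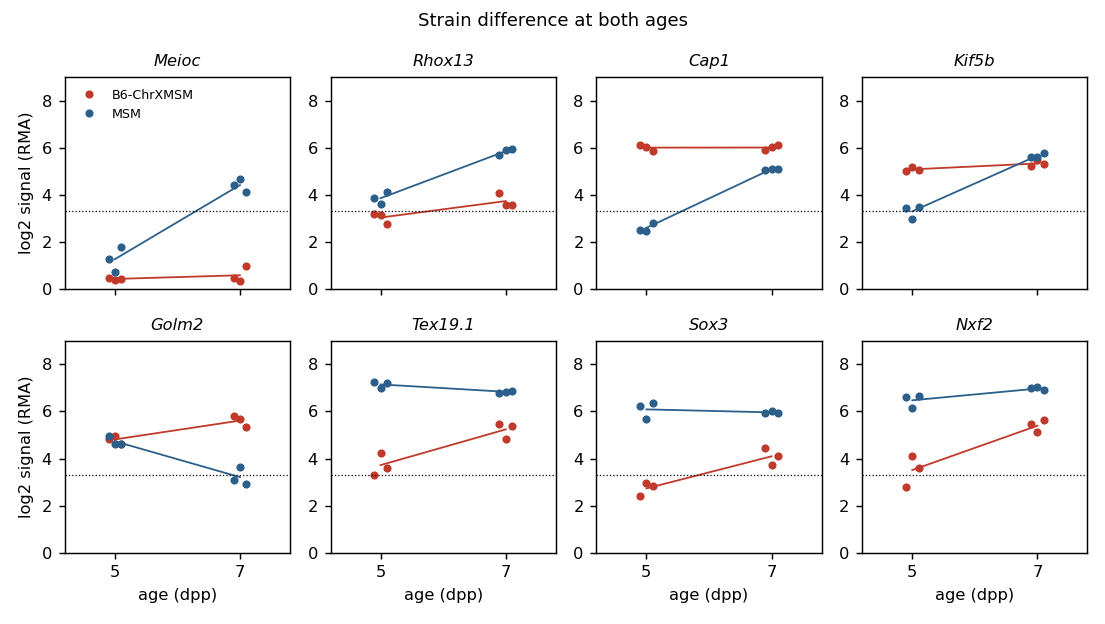
Log2 signal of 8 genes in B6-ChrXMSM and MSM testes at 5 and 7 dpp. Points are single males, lines join the group means and the dotted line marks a signal of 10; the difference between strains of the probe sets shown widened with age in *Meioc*, *Rhox13* and *Golm2* and narrowed in *Cap1*, *Kif5b*, *Tex19.1*, *Sox3* and *Nxf2*.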

How the data were processed

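Testis RNA of single males was hybridised to Affymetrix mouse expression arrays. The authors processed the arrays by robust multi-array averaging in GeneSpring GX (version not given in the sources used here), which corrects the background, equalises the arrays by quantiles and summarises the perfect-match probes, and deposited the result as log2 values. A uniform shift of all transcripts between strains is removed by this step. Of 45101 probe sets, 34871 had a single gene on an autosome or the X chromosome in the platform annotation. Those with a mean above a signal of 10 in at least 1 group were tested on the log2 scale with limma 3.58.1 in R 4.3.3, with Benjamini-Hochberg adjustment over all of them, in a fit on the 6 arrays of both groups (12 for the strain by age term). All columns belonged to a labelled sample. The labels give biological replicates, and the study states that distinct mice were tested separately, so that p-values measure the spread between animals. Probe sets on chromosomes 1 and X that the study lists as polymorphic were left out. The steps were tested on simulated data.

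The members, gene lists and tests were chosen with earlier results of these data known. Named were the 8 largest called differences in each direction on the X chromosome and on the autosomes (groups not overlapping, no kept probe set of opposite sign), up to 4 members of each list with the largest differences, the markers, the genes of the RT-PCR, *Nnt*, and the 4 largest strain by age terms in each direction. Other members of lists with few or outlying calls and further X-linked genes were named after their values were seen. Each list was described by 1 probe set per gene, that of the highest mean. Alternatives were the filter, centring, variance model, samples in the fit, replicate number as a block, polymorphic probe sets, probe sets per gene and each array left out in turn.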

Additional observations from a re-analysis of the deposited data

Results flagged for a closer look

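The results below were singled out because the difference between B6-ChrXMSM and MSM testes was not the same at 7 and 5 dpp, by the strain by age term of limma (log2 difference at 7 dpp minus that at 5 dpp). Among genes of germ cells, the term was -2.99 for *Meioc*, -1.30 for *Rhox13*, -1.33 for *1700013H16Rik* and -1.23 for *Dmrtb1*. It was 1.38 for *Nxf2*, 1.49 for *Sox3* and 1.83 for *Tex19.1*, where the lower level in B6-ChrXMSM was nearer to that of MSM at 7 dpp.

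Among genes of somatic cells, the term was 0.91 for *Amh* and 0.75 for *Slc38a5* of Sertoli cells, -0.72 for *Cyp11a1* of Leydig cells, 0.87 for *Sox18* and 0.90 for *Ramp2* of the endothelium and 0.94 for *Lyz2* of macrophages. *Sox18*, *Ramp2* and *Lyz2* were higher in B6-ChrXMSM by 1.05, 1.04 and 1.38 at 7 dpp and by 0.18, 0.15 and 0.44 at 5 dpp.

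Of other genes on the X chromosome the term was -1.33 for *1700013H16Rik*, -0.79 for *Xiap*, 0.87 for *Erdr1* and -0.97 for the weaker probe set of *Atrx*. Of further genes with a more negative difference at 7 dpp, it was -2.50 for *Cap1*, and -2.42 in its second probe set. It was -2.12 for *Kif5b* and -2.11 for *Rbm39*, each in the weakest of several probe sets. The term was -1.45 for *Hsph1*, -1.02 for *Cbln1*, -0.80 for *Sectm1a* and -0.60 for *Depdc5*. *Hsph1*, a heat shock protein, was higher in B6-ChrXMSM by 0.73 at 5 dpp and lower by 0.72 at 7 dpp. Of those with a more positive difference, it was 2.33 for *Golm2*, 1.73 for *Pcbp4*, 1.73 for *Ppp2r1a*, 1.51 for *H2-Q10* and 1.14 for *Rpl12*. The term was 0.82 for *Rgcc*, 0.77 for *Ehmt2*, 0.70 for *H2-D1*, 0.66 for *Pnpt1* and 0.63 for *Rps25*. *H2-Q10* was below the signal of 10 in both groups at 5 dpp.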

How the results depend on the processing

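With a stricter filter (a mean signal above 50), 1577 probe sets were called at 7 dpp, 613 higher and 964 lower, of which 1550 were autosomal and 27 X-linked (4 higher and 23 lower). With 1 probe set per gene, 2137 were called. Without a filter there were 5707 calls, 92 of them X-linked, and with the listed polymorphic probe sets kept 4237 and 76. Centring on the median of the probe sets tested, chosen after seeing the data, gave 2121 higher and 1838 lower calls at 7 dpp and 2623 and 2696 at 5 dpp. Leaving out each array in turn gave 4052 to 4309 calls in all, 3995 to 4242 on the autosomes, 57 to 67 on the X chromosome, 5399 to 5636 at 5 dpp and 1765 to 2017 for strain by age, where the larger of both directions was not the same in all of these fits.

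Centring moved the list medians to -1.31 for differentiating spermatogonia, 0.21 for the retinoic acid pathway, 0.48 for Sertoli cells, -0.17 for endothelium, 0.47 for macrophages, 0.49 for interferon-induced genes, -0.37 for cholesterol synthesis, 0.077 for proliferation, 0.11 for imprinted genes, 0.048 for immediate early genes, 0.031 for ribosomal proteins, -0.013 for the respiratory chain and -0.049 for DNA methylation and repressors. The mean over all probe sets of a gene moved them to -1.12 for differentiating spermatogonia, 0.074 for interferon-induced genes, 0.16 for imprinted genes and -0.18 for immediate early genes.

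Of 150 named differences, 22 lost or gained a call under at least 1 alternative. None that was called, as reported or under the alternative, changed its direction. Changes of sign among differences not called were not counted. All 22 lay near 1.5-fold or had a wide spread, such as *Lcn2*, which lost its call without replicate 1 or 2 of B6-ChrXMSM or replicate 3 of MSM (-0.94 to -1.23), and *Fabp4*, which was called without replicate 1 of B6-ChrXMSM (-2.41). The cause was not tested.

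The replicate numbers did not pair the samples, since the deviations of same-numbered males correlated by -0.07, -0.07 and 0.20. With the replicate number as a block, 4150 probe sets were called at 7 dpp (4088 autosomal and 62 X-linked), 5480 at 5 dpp and 1871 for strain by age.

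The number of arrays limits the precision, and weak signals limit the size of many large differences. Autosomal sequence differences under the probes were not measured beyond chromosome 1.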
